A study of Bos taurus with 179 samples.

Results

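Bovine oocytes near the end of growth, 110 μm or more in diameter, were compared with oocytes in mid-growth, 70 to 109 μm in diameter. Oocytes were chosen by the size group in their labels: 70–79, 80–89, 90–99 and 100–109 μm formed the mid-growth side and 110–119 and > 120 μm the large side. The comparison used 119 of the 179 deposited oocytes, 86 in mid-growth (23, 24, 21 and 18 per group) and 33 large (19 and 14), all among the 165 that the study retained. The largest mid-growth oocyte measured 109.63 μm and the smallest large oocyte 110.5 μm. Large oocytes reached 135 μm.

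Ovaries of Bos taurus came from an abattoir. Growing oocytes were released by slicing the cortex into medium with cilostamide, an inhibitor of phosphodiesterase 3. Fully grown oocytes, given in the labels as over 130 μm, had been drawn from visible antral follicles, and the large side held 4 of that size, for which collection and size cannot be told apart. Oocytes were freed of their follicle cells, measured and frozen alone. No animal was named for any oocyte and no treatment was given. Polyadenylated mRNA of each oocyte was amplified and sequenced in replicate 1 (150 bp reads, 55 mid-growth and 22 large oocytes) or replicate 2 (75 bp reads, 31 and 11 oocytes). Replicate and read length cannot be told apart.

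A mammalian oocyte grows while arrested in the prophase of the first meiotic division. During growth it is transcriptionally active and stores mRNA and protein, and transcription falls silent as the oocyte approaches full size. It also gains the ability to resume meiosis, which needs cyclin-dependent kinase, spindle, kinetochore and chromosome segregation factors. Golgi traffic supplies cortical granules and the zona pellucida, and cell contacts join the oocyte to the surrounding granulosa cells.

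Counts of the oocytes of 1 size group and 1 replicate were added up, which gave 8 mid-growth and 4 large sums. Levels below are in CPM, the counts of a gene as a share of the counts of its sum, scaled between sums by TMM. They are relative: the total mRNA of an oocyte was not measured. Totals per oocyte ranged from 277126 to 7856854 counts in mid-growth (median 1537892) and from 328481 to 8038061 counts among large oocytes (median 1764849), with medians of 11582.5 and 11574 detected genes. A single oocyte gave 52.9% of the 100–109 μm sum of replicate 1. Polyadenylated mRNA does not separate new transcripts from stored ones. The authors also caution that the capture favours mRNA with long poly(A) tails, which may leave the picture incomplete.

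Of 14087 genes tested, 998 were upregulated in large oocytes and 1082 were downregulated by edgeR's quasi-likelihood test at a Benjamini-Hochberg adjusted p below 0.05, with the replicate as a block. These DEGs were 7.08% and 7.68% of the genes tested, 14.8% in all. The median log2 fold change was 0.89 among the upregulated genes (quartiles 0.71 and 1.2) and −0.96 among the downregulated (quartiles −1.47 and −0.75), against −0.07 over all genes. A change of at least 1 on the log2 scale was found for 870 DEGs that had counts in each of the 6 size groups, of which 483 were downregulated. A change of at least 2 was found for 56 upregulated and 124 downregulated genes. The plot of fold change against adjusted p shows how these genes were spread.

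**Figure D1:**
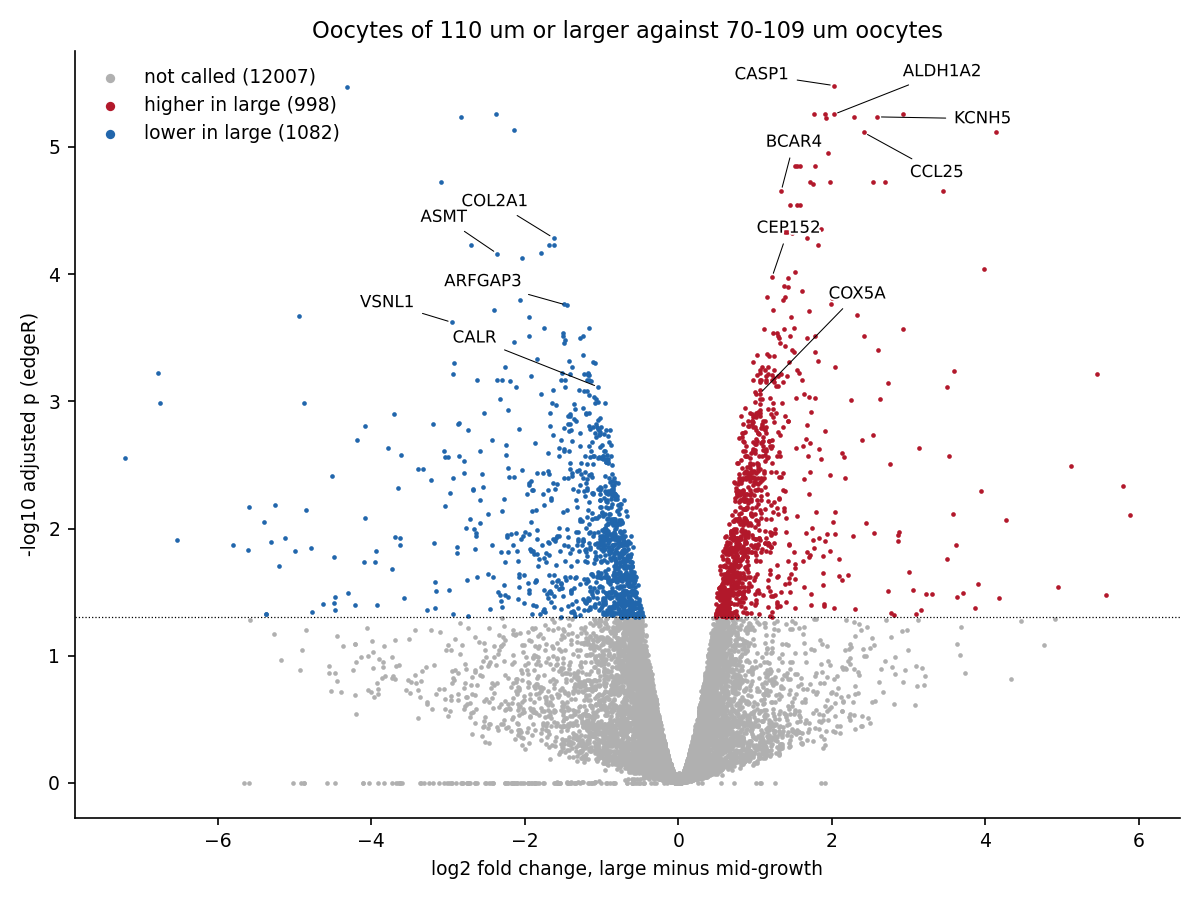
Log2 fold change of large minus mid-growth oocytes (x axis) against −log10 of the adjusted p (y axis) for the 14087 genes tested. Red points are the 998 upregulated and blue points the 1082 downregulated genes, grey points were not called, and the dotted line marks an adjusted p of 0.05. CASP1 has the smallest adjusted p (3.29e-06). The fitted positions of 39 called genes with no count in at least 1 of the 6 size groups depend on the fit and are no measured fold.

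The count of DEGs depended on single sums of both sides. When the 110–119 μm sum of replicate 1 was left out, 504 upregulated and 477 downregulated genes were called, and when the > 120 μm sum of replicate 2 was, 604 and 402. Leaving out the > 120 μm sum of replicate 1 or the 90–99 μm sum of replicate 1 gave 641 and 608 downregulated genes. Without the replicate block, 11 and 10 genes were called. Within replicate 1 alone, edgeR called none, although 2470 genes had an unadjusted p under 0.05, and within replicate 2 alone it called 106 and 50. For the difference of the contrast between the replicates, edgeR called 0 genes (0% of the genes tested), with 1091 at an unadjusted p under 0.05. Its median SE was 0.486, against 0.261 for the main contrast, so smaller differences could be missed. Without the filter on low counts, 13 of 17969 genes were called. With the replicate means subtracted, the 4 large sums lay above all 8 mid-growth sums for 469 of the 998 upregulated genes, and for 541 (3.84%) of the genes tested. They lay below all 8 for 488 of the 1082 downregulated genes, and for 633 (4.49%) of those tested.

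A gene symbol could be given to 2911 of the genes tested, mainly those whose symbols begin with A, B or C, of which 430 were DEGs, 205 of them upregulated. The genes described from here on come from this part of the transcriptome.

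CASP1, the protease that activates interleukin-1β, had the smallest adjusted p of all genes tested. Its level in the mid-growth sums ranged from 29.7 to 130.7 CPM (median 53.6). In large oocytes it stood at 241 and 356.1 CPM at 110–119 μm (replicates 1 and 2) and at 155 and 307 CPM at > 120 μm. All 4 large sums were above all 8 mid-growth sums. The log2 fold change was 2.03 (SE 0.17, adjusted p = 3.29e-06), with 2.10 in replicate 1 and 1.98 in replicate 2. Values for 1 replicate are here, and below, the difference between its mean log2 CPM in the 2 large and in the 4 mid-growth sums, with no test. Of the 33 large oocytes, 32 exceeded the mid-growth median of their own replicate.

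ALDH1A2, which makes retinoic acid from retinaldehyde, was also upregulated. The mid-growth sums held 8.38 to 40.8 CPM (median 14.9), and the large sums 67.9 and 49.8 CPM at 110–119 μm and 71.2 and 112 CPM at > 120 μm, with no overlap. Its log2 fold change was 2.02 (SE 0.19, adjusted p = 5.54e-06), and 0.97 against 100–109 μm alone (adjusted p = 0.0925). For KCNH5, a voltage-gated potassium channel, mid-growth levels of 1.94 to 21.2 CPM (median 7.47) stood against 25.4 and 129.5 CPM at 110–119 μm and 21.6 and 78.7 CPM at > 120 μm. KCNH5 was higher in replicate 2 than in replicate 1 in the large groups, yet it rose in both (log2 fold change 2.59, SE 0.25, adjusted p = 5.8e-06).

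CCL25, a chemokine, differed more between replicates. Its mid-growth sums ran from 6.75 to 173 CPM (median 34.7), and the large sums were 404 and 413 CPM in replicate 1 but 61.0 and 57.5 CPM in replicate 2. The 100–109 μm sums were 173 and 59.7 CPM. In replicate 1 both large sums lay above all mid-growth sums, whereas in replicate 2 the 100–109 μm sum lay between the large sums. Over all mid-growth groups the log2 fold change was 2.42 (SE 0.25, adjusted p = 7.69e-06), and against 100–109 μm alone it was 0.63 (adjusted p = 0.355).

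BCAR4, known for oocyte-restricted expression in cattle, kept a narrow level in the mid-growth sums, 54.8 to 91.6 CPM (median 75.8). It then stood at 231 and 231.99 CPM at 110–119 μm and at 124 and 188 CPM at > 120 μm, clear of every mid-growth sum. Single mid-growth oocytes were more spread, from 28.5 to 199.8 CPM. The log2 fold change was 1.34 (SE 0.15, adjusted p = 2.23e-05), and all 33 large oocytes were above the mid-growth median of their replicate. Unlike CCL25, BCAR4 was also upregulated against 100–109 μm alone, with a log2 fold change of 1.23 (adjusted p = 0.036).

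ANKRD37, an ankyrin repeat protein, ranged from 1.42 to 20.6 CPM in mid-growth (median 6.74) and was 48.5 and 48.2 CPM at 110–119 μm and 19.3 and 69.4 CPM at > 120 μm. ANKRD37 had a log2 fold change of 2.69 (SE 0.30, adjusted p = 1.89e-05), and its > 120 μm sum of replicate 1 lay within the mid-growth range. AUNIP, a partner of Aurora A kinase and ninein, rose by 1.24 (SE 0.17), from a mid-growth median of 38.7 CPM to 137 and 44.3 CPM at 110–119 μm and 182 and 56.6 CPM at > 120 μm. Its sums fell apart by replicate, and within each replicate the large sums were the higher ones. The log2 fold change of AUNIP against 100–109 μm alone was 0.50 (adjusted p = 0.288).

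**Figure D2:**
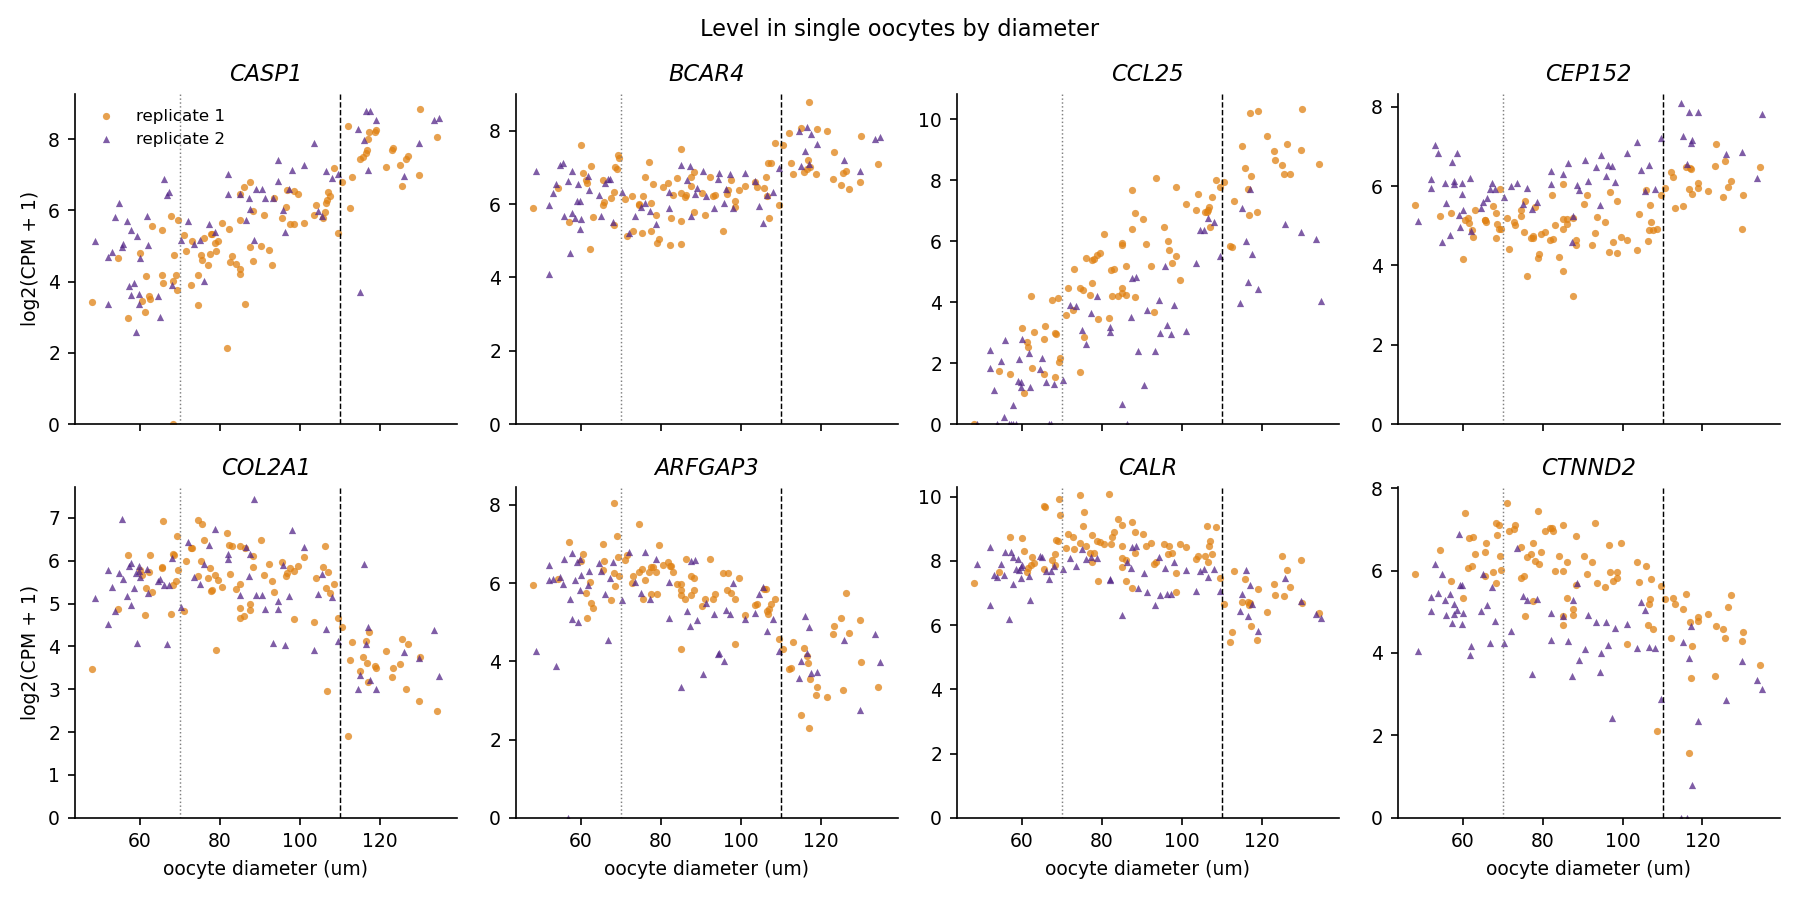
Level of 8 DEGs in single oocytes, as log2(CPM + 1) (y axis), against oocyte diameter in μm (x axis), with circles for replicate 1 and triangles for replicate 2. The dashed line marks 110 μm and the dotted line 70 μm. For BCAR4, single oocytes between the dotted and dashed lines lie between 28.5 and 199.8 CPM around a median of 74.9 CPM, while the sums of CCL25, at 6.75 to 73.3 CPM for 70–99 μm, reach 173 and 59.7 CPM at 100–109 μm.

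Among the downregulated genes, COL2A1, the chain of type II collagen, had the smallest adjusted p of those with a symbol. It ranged from 34.3 to 68.5 CPM in the mid-growth sums (median 49.1) and was 14.1 and 24.4 CPM at 110–119 μm and 12.1 and 13.05 CPM at > 120 μm. No large sum reached the mid-growth range, and 1 of 33 large oocytes exceeded the mid-growth median of its replicate. The log2 fold change was −1.63 (SE 0.20, adjusted p = 5.19e-05). It was −1.26 against 100–109 μm alone (adjusted p = 0.0362).

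ASMT, the last enzyme of melatonin synthesis, ranged from 3.44 to 38.1 CPM in mid-growth (median 13.3) and was 4.43 and 1.23 CPM at 110–119 μm and 5.10 and 2.10 CPM at > 120 μm. Counts of ASMT were found in 82 of 86 mid-growth and 20 of 33 large oocytes. Its log2 fold change was −2.36 (SE 0.30, adjusted p = 6.89e-05). ALDH18A1, which starts proline synthesis, went from a mid-growth median of 56.5 CPM (14.9 to 101 CPM) to 17.8 and 13.2 CPM at 110–119 μm and 14.8 and 10.02 CPM at > 120 μm. None of the 33 large oocytes was above the mid-growth median for ALDH18A1 (log2 fold change −1.85, SE 0.29, adjusted p = 0.000467).

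VSNL1, a neuronal calcium sensor, and IL1F10, of the interleukin-1 family, were low and fell further. VSNL1 went from a mid-growth median of 5.11 CPM (1.11 to 10.99 CPM) to 1.68, 0.67, 0.353 and 0 CPM in the large sums, and its log2 fold change was −2.95 (SE 0.42, adjusted p = 0.000239). IL1F10 had a log2 fold change of −2.94 (SE 0.47, adjusted p = 0.00061), with counts in 67 of 86 mid-growth and 13 of 33 large oocytes. A 0 in an oocyte means not detected at that depth.

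RGS4, a regulator of G-protein signalling, was found in 27 of 86 mid-growth oocytes and 1 of 33 large ones. Its mid-growth sums ranged from 0 to 11.5 CPM (median 1.86), highest at 70–79 μm, and the large sums were 0, 0, 0.0785 and 0 CPM. No fold change is given, because 1 large group had no count. The adjusted p was 0.000594, and it was 1 without the 100–109 μm sum of replicate 1, the sole setting among those that left out 1 sum in which a gene of the top 10 in either direction was lost. CCL1, a chemokine, and CD99L2, a membrane protein, completed the downregulated set with CTNND2 and ARFGAP3, with log2 fold changes of −1.47 (SE 0.22) for CCL1 and −2.40 (SE 0.34) for CD99L2. CCL1 was at 32.5 and 46.6 CPM at 110–119 μm and 10.2 and 12.3 CPM at > 120 μm, where mid-growth sums held 37.1 to 102 CPM. Against mid-growth it was called at > 120 μm (log2 fold change −2.36, adjusted p = 0.000328) and not at 110–119 μm (−0.58, adjusted p = 0.174), but the difference between these groups did not pass the test (−1.78, adjusted p = 0.296).

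The gene IDs without a symbol that had the smallest adjusted p are given by ID. ENSBTAG00000027841 rose from a mid-growth median of 9.61 CPM (0.616 to 44.7 CPM) to 64.4, 65.3, 88.6 and 41.2 CPM in the large sums (log2 fold change 2.93, SE 0.28, adjusted p = 5.54e-06). Its highest mid-growth sum was at 100–109 μm, and against that group alone it was not called (0.97, adjusted p = 0.216). ENSBTAG00000046257 fell from a median of 37.9 CPM (10.4 to 151.1 CPM) to 1.64, 2.12, 3.06 and 1.86 CPM (log2 fold change −4.31, SE 0.37, adjusted p = 3.37e-06). It was found in 58 of 86 mid-growth and 11 of 33 large oocytes.

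Counts of called members are given for each gene list beside the share over all genes tested, 7.08% upregulated and 7.68% downregulated, and the difference of a list from these shares was not tested. Vesicle coat genes had the most downregulated members of these lists. Of 46 genes for vesicle coats, clathrin adaptors and ARF proteins, all tested, 14 were downregulated, 2 were upregulated and 30 did not pass the test. The median log2 fold change was −0.35, against −0.07 over all genes, and 34 of the 46 values were negative. Leaving out 1 sum at a time gave between 6 and 12 downregulated and 1 to 5 upregulated members, and leaving out the deepest 100–109 μm oocyte gave 14.

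The downregulated members came from several complexes. The adaptor complex AP-1, which sorts cargo between the Golgi and endosomes, had 4 of 7 downregulated (AP1B1, AP1G1, AP1M1 and AP1S3). AP-3, which serves lysosome-related organelles, had 3 of 6 (AP3B1, AP3D1 and AP3M2), and AP-2, the adaptor of clathrin at the plasma membrane, had 2 of 5 (AP2A2 and AP2B1). COG2 and COG7, of the COG tethering complex at the Golgi, were 2 of 5, and COPG1, of the COPI coat, 1 of 7. AP4M1, of AP-4, completed the 14 with ARFGAP3. All 7 COPI and all 5 COG values were negative. None of the 3 clathrin chains passed the test, with log2 fold changes between −0.13 and 0.20.

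ARFGAP3, a GTPase-activating protein for ARF1 at the Golgi, had the smallest adjusted p of this list. It ranged from 31.5 to 74.4 CPM in mid-growth (median 48.5) and was 13.8 and 21.8 CPM at 110–119 μm and 17.8 and 16.1 CPM at > 120 μm. No large oocyte was above the mid-growth median of its replicate. The log2 fold change was −1.45 (SE 0.20, adjusted p = 0.000175). For AP3D1, the delta subunit of AP-3, levels of 41.4 to 80.8 CPM (median 59.7) stood against 19.9, 30.5, 28.1 and 27.03 CPM in the large sums, without overlap, and the log2 fold change was −1.16 (SE 0.21, adjusted p = 0.00123). AP2A2 fell by 1.44 on the log2 scale (SE 0.26, adjusted p = 0.0013).

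The upregulated members were AP4E1 and AP3S1. AP4E1, of the AP-4 complex, was at 8.41 to 15.2 CPM in the mid-growth sums of replicate 1 and 19.2 to 35.9 CPM in those of replicate 2. It was at 20.5 and 59.6 CPM (replicates 1 and 2) at 110–119 μm and 19.2 and 44.3 CPM at > 120 μm (log2 fold change 0.87, SE 0.22, adjusted p = 0.0122). AP3S1, the sigma subunit of AP-3, had a log2 fold change of 0.59 (SE 0.17, adjusted p = 0.0274), and its call was lost without the 110–119 μm sum of replicate 1, either > 120 μm sum or the 80–89 μm sum of replicate 1. The subunits of AP-3 therefore did not share a direction.

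**Figure D3:**
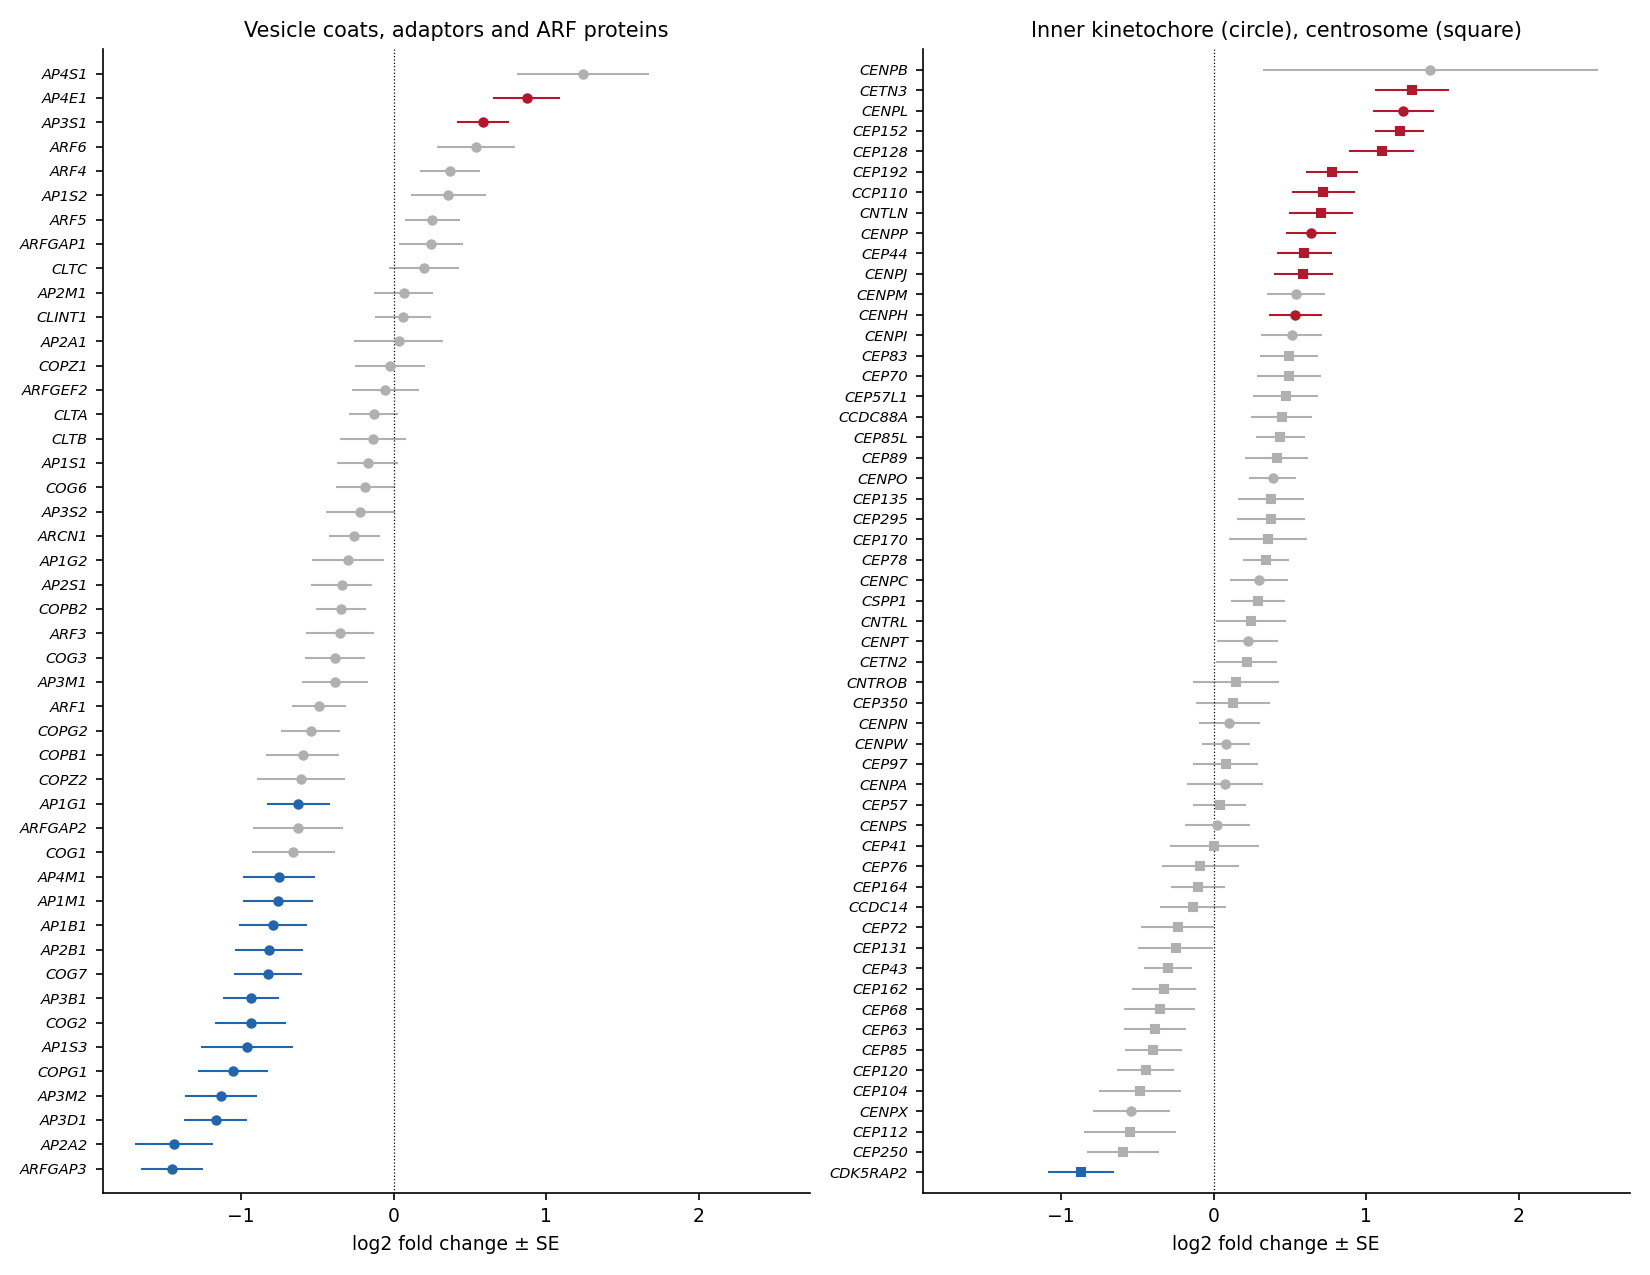
Log2 fold change of large minus mid-growth oocytes with its SE (bars) for 46 vesicle coat genes (left) and for 14 inner kinetochore (circles) and 41 centrosome genes (squares, right). Red is upregulated, blue downregulated and grey not called. The blue points on the left number 14 and the red points on the right 11.

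Of 24 chaperonin and protein folding genes, 6 were downregulated and 1 upregulated, with a median of −0.26, against 7.68% and 7.08% of all genes. With 1 sum left out, 2 to 5 were downregulated and up to 2 upregulated. CALR, which encodes the calcium-binding chaperone calreticulin, was at 185 to 347.2 CPM in mid-growth (median 250.4) and at 102, 127, 147.97 and 106 CPM in the large sums, all below the mid-growth range. Its log2 fold change was −1.04 (SE 0.17, adjusted p = 0.000771), and none of 33 large oocytes exceeded the mid-growth median. CANX, its membrane-bound relative calnexin, fell by 0.60 (SE 0.18, adjusted p = 0.0277). CLGN, the germ cell homologue calmegin, counted here in the calcium handling list alone, fell by 1.11 (SE 0.23, adjusted p = 0.00311). CLGN had reached 88.1 CPM in the 100–109 μm sum of replicate 1, so its groups overlapped, and against 100–109 μm alone its log2 fold change was −0.11 (adjusted p = 0.875).

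Beside CALR and CANX, the downregulated folding genes were CLPB, a mitochondrial disaggregase (log2 fold change −1.19), the HSP70 co-chaperone BAG3 (−0.83), the chaperonin subunit CCT3 (−0.64) and BAG6 (−0.59). CDC37L1, a relative of the kinase co-chaperone CDC37, was upregulated by 0.77 (SE 0.17). Of 23 genes for calcium handling, 4 fell (CALR, CANX, CLGN and the protease CAPN2) and 3 rose, namely CALB1, CALM2 and CAMK2G, again beside 7.68% and 7.08% of all genes. These counts became 2 to 4 and 0 to 4 with 1 sum left out. The log2 fold change of CAMK2G against 100–109 μm alone was −0.06 (adjusted p = 0.935). CALM2, a calmodulin gene, had a log2 fold change of 0.85 (SE 0.25, adjusted p = 0.029). That value came mainly from replicate 1, with 1.46 against 0.13 in replicate 2, and from the 110–119 μm sum of replicate 1 at 7783 CPM. The call was lost without any of 6 sums, this one included, with adjusted p up to 0.339.

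Of 23 tested genes for cadherins, catenins and claudins, 4 were downregulated and none upregulated, with a median of −0.19, where 7.68% and 7.08% of all genes fell and rose. Between 2 and 4 were downregulated when 1 sum was left out. CTNND2, δ-catenin, ranged from 19.6 to 95.9 CPM in mid-growth (median 35.7) and was 31.1 and 21.2 CPM in replicate 1 and 7.03 and 9.55 CPM in replicate 2 in the large groups. Within each replicate both large sums lay below all mid-growth sums (log2 fold change −1.42, SE 0.22, adjusted p = 0.000483). CDH3, P-cadherin, was far more abundant in counts, from 320.5 to 869.6 CPM in mid-growth (median 589.9) to 284, 218.1, 410.5 and 236 CPM in large oocytes, and its log2 fold change was −1.01 (SE 0.19, adjusted p = 0.00159). The receptor CXADR (−0.85) and the claudin CLDN1 (−0.76) made up the rest, and without the deepest 100–109 μm oocyte 2 of the 4 were called. CDH1, E-cadherin, had a log2 fold change of 0.21 and CTNNB1, β-catenin, of −0.19, neither called. Of 32 actin cytoskeleton genes, ACTG1 (−0.83) and ACTN4 (−0.87) fell and ARPC5L (0.55) rose, no more than the share over all genes in either direction, and 1 to 4 fell and 0 to 2 rose without 1 sum.

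Counts for centrioles, kinetochores and the cell cycle stand beside 7.08% of all genes tested upregulated and 7.68% downregulated. Of 41 centrosome and centriole genes, 8 rose and 1 fell, with a median log2 fold change of 0.22. Settings that left out 1 sum gave 4 to 10 upregulated and up to 2 downregulated members. CEP152, the scaffold on which new centrioles form, had 28.2 to 98.7 CPM in mid-growth (median 46.0) and 78.2 and 73.8 CPM in replicate 1 and 198.5 and 154 CPM in replicate 2 in large oocytes. Each replicate on its own showed no overlap, and all 33 large oocytes were above the mid-growth median. Its log2 fold change was 1.22 (SE 0.16, adjusted p = 0.000106).

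CEP128 (1.10), the centrosome scaffold CEP192 (0.78), CCP110 (0.72), CNTLN (0.70), CEP44 (0.59) and CENPJ (0.59) also rose. CETN3, a centrin, was at 312 to 584 CPM in the mid-growth sums of replicate 1 and at 835 to 1903 CPM in those of replicate 2. It was at 2723 and 2442 CPM (replicates 1 and 2) at 110–119 μm and 831 and 2135 CPM at > 120 μm (log2 fold change 1.30, SE 0.24, adjusted p = 0.00174). It rose by 1.83 in replicate 1 and by 0.59 in replicate 2. CDK5RAP2, which anchors microtubule nucleation at the centrosome, was the downregulated member, at −0.87 (SE 0.22, adjusted p = 0.0115).

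Of 14 tested genes of the centromere and inner kinetochore, CENPL, CENPP and CENPH rose, none fell, and 13 values were positive, with a median of 0.34. Without 1 sum, 1 to 4 rose. CENPL was at 30.7 to 76.2 CPM in mid-growth (median 49.6) and at 142, 123, 119.9 and 80.1 CPM in the large sums, with no overlap (log2 fold change 1.24, SE 0.20, adjusted p = 0.000651). CENPP had a log2 fold change of 0.64 (SE 0.17) and CENPH of 0.54 (SE 0.18). CENPA, the centromeric histone, was at 0.08 and was not called.

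Of 21 tested genes for the spindle checkpoint, outer kinetochore and Aurora kinases, 6 rose and 2 fell, with 3 to 8 and 0 to 2 when 1 sum was left out. The mid-growth sums of the kinetochore motor CENPE held 129 to 197 CPM in replicate 1 and 401 to 895 CPM in replicate 2. In large oocytes CENPE was at 382 and 207 CPM in replicate 1 and 1136 and 951 CPM in replicate 2 (log2 fold change 0.79, SE 0.20, adjusted p = 0.0123). CKAP2, a spindle protein (0.95), CENPF (0.80), the Aurora A activator BORA (0.67), the meiotic kinase AURKC (0.58) and ASPM (0.57) rose too. The AURKC call was lost in 4 of 12 settings that left out 1 sum, with adjusted p up to 0.169. Its log2 fold change against 100–109 μm alone was 0.06 (adjusted p = 0.929). Citron kinase CIT (−0.80) and the microtubule protein CLASP1 (−0.80) fell, and the CLASP1 call was lost in 8 of 12 settings that left out 1 sum, with adjusted p up to 0.161. The checkpoint kinases BUB1 (−0.37) and BUB1B (−0.45), and AURKA (0.32) and AURKB (0.33), were not called.

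Among 32 tested cyclins, CDKs and regulators, 6 rose and none fell, with a median of 0.18. Leaving out 1 sum gave 3 to 7 upregulated and up to 2 downregulated members. CKS1B, a small subunit that binds cyclin-dependent kinases, was at 549.8 to 874 CPM in mid-growth (median 756) and at 1521, 1189, 1178 and 1292 CPM in large oocytes, with no overlap (log2 fold change 0.84, SE 0.16, adjusted p = 0.00176). CKS2 (0.64), cyclin B2 (CCNB2, 0.63), the phosphatase CDC25B (0.67), cyclin E2 (CCNE2, 0.95) and CDK4 (0.52) were the others. CDK1, the kinase of M phase, had a log2 fold change of 0.54 and CCNB1 of 0.25, and neither was called. Of 13 anaphase promoting complex genes, CDC26 (0.95), ANAPC13 (0.74) and CDC27 (0.64) rose and CDC23 (−0.81) fell. Leaving out 1 sum gave between 0 and 3 upregulated and 0 to 1 downregulated members of this complex, and the CDC23 call was lost in 4 of 12 such settings, with adjusted p up to 0.125.

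**Figure D4:**
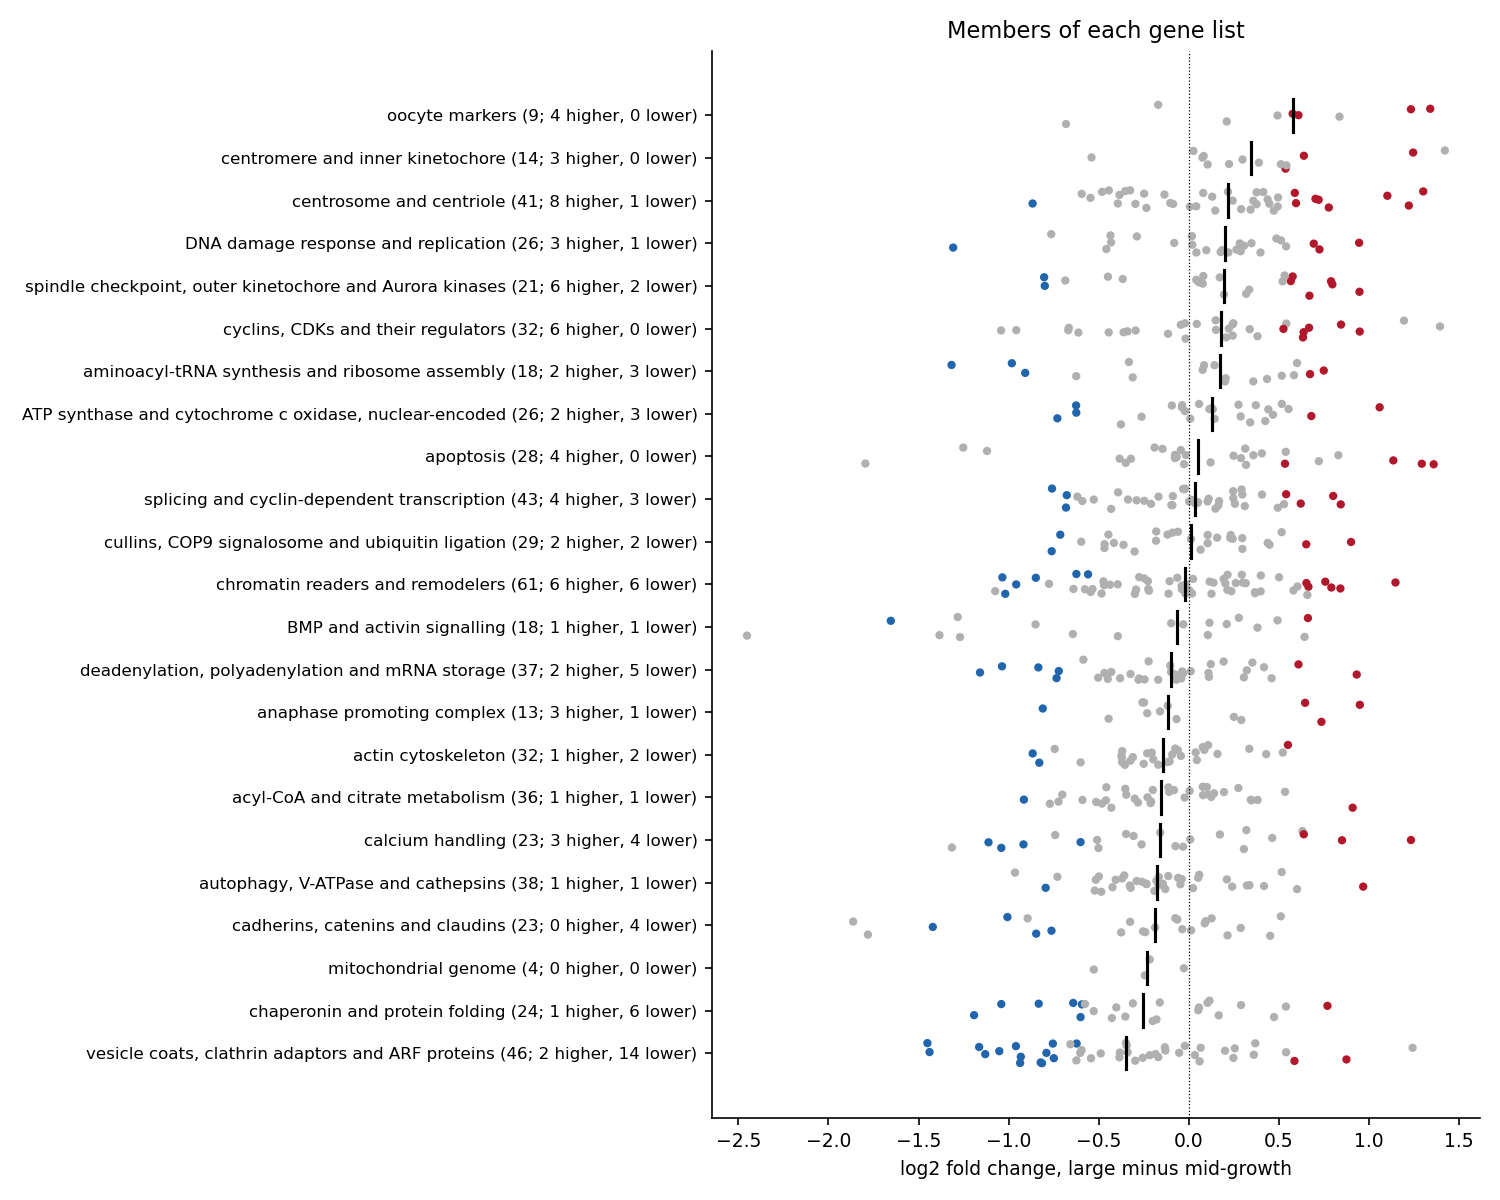
Log2 fold change of large minus mid-growth oocytes (x axis) for the tested members of 23 gene lists, 1 point per gene, with the number tested and called beside each list. Red is upregulated, blue downregulated, grey not called, and the black bar is the median of the list, which ranges from −0.35 for vesicle coats to 0.58 for oocyte markers.

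DNA repair and apoptosis genes are read against the 7.08% and 7.68% of all genes tested that rose and fell. Of 26 genes for the DNA damage response and replication, BRCA2 (0.94, SE 0.21), CLSPN (0.69, SE 0.17) and ATAD5 (0.72, SE 0.23) rose and APEX2 (−1.31, SE 0.32) fell. BRCA2, which acts in the repair of broken DNA, was at 404 and 232.1 CPM in replicate 1 and 1118 and 1156 CPM in replicate 2 in large oocytes. Its mid-growth sums held 130.1 to 160 CPM in replicate 1 and 411 to 857 CPM in replicate 2. Of 28 tested apoptosis genes, 4 rose (CASP8AP2, BNIP1, CRADD and AVEN) and none fell. With 1 sum left out, 1 to 4 members were upregulated for DNA damage and 2 to 6 for apoptosis. CASP8AP2, a nuclear protein that also acts in histone gene expression, rose by 1.29 (SE 0.21, adjusted p = 0.000628), and BNIP1, which acts in traffic at the endoplasmic reticulum, by 1.36 (SE 0.28, adjusted p = 0.00367). AVEN is an inhibitor of cell death.

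Of 37 genes for deadenylation, polyadenylation and mRNA storage, 2 rose and 5 fell, where 7.08% and 7.68% of all genes did. Without 1 sum, 1 to 4 rose and 2 to 5 fell. BTG4, the oocyte adaptor that recruits the CCR4-NOT deadenylase during maturation, was at 2016 to 5682 CPM in mid-growth (median 4153) and at 7313, 5956, 3624 and 6948 CPM in large oocytes. The groups overlapped. Its log2 fold change was 0.61 (SE 0.20, adjusted p = 0.0481), just within the threshold, and the call was lost in 8 of 12 settings that left out 1 sum, with adjusted p up to 0.281. BTG1 rose by 0.93 (SE 0.20, adjusted p = 0.00502). CAPRIN1, an mRNA-binding protein of storage granules, fell by 1.04 (SE 0.21, adjusted p = 0.00276), and AGO3, of the Argonaute family, by 1.16 (SE 0.28, adjusted p = 0.00918). ATXN2L (−0.84), BTG3 (−0.73) and CELF2 (−0.72) fell as well. None of the CNOT genes passed the test, and CPEB1, which controls cytoplasmic polyadenylation, had a log2 fold change of −0.17.

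Of 61 tested chromatin readers and remodelers, 6 rose and 6 fell, with a median of −0.02, beside 7.08% and 7.68% of all genes. The counts ran from 2 to 8 and from 1 to 5 when 1 sum was left out. CTCF, the insulator protein, rose from 20.9 to 25.4 CPM in the mid-growth sums of replicate 1 to 50.1 and 44.1 CPM. In replicate 2 it rose from 42.2 to 65.8 CPM to 75.6 and 91.3 CPM (log2 fold change 0.84, SE 0.18, adjusted p = 0.00402). ACTR6 (0.79), BAZ2B (1.15), ATRX (0.76), ATAD2B (0.66) and ARID4A (0.65) rose. The heterochromatin protein gene CBX3 (−1.03), the Polycomb gene BMI1 (−1.02), CHD1L (−0.96), CARM1 (−0.85), BRD2 (−0.62) and ASH2L (−0.56) fell. Of 43 splicing genes 4 rose and 3 fell, near the shares over all genes, with 1 to 7 and 0 to 3 when 1 sum was left out. Of 18 aminoacyl-tRNA and ribosome assembly genes 2 rose and 3 fell, with 0 to 5 and 2 to 3 in those settings.

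Of 26 nuclear-encoded genes for ATP synthase and cytochrome c oxidase, COX5A and ATP5MC1 rose and ATP5MC2, COX8A and ATP5F1B fell, beside 7.08% and 7.68% of all genes. Leaving out 1 sum gave 1 to 8 upregulated and 0 to 3 downregulated members, with the 8 in the setting without the 110–119 μm sum of replicate 2. The COX8A call was lost in 7 of 12 such settings and the ATP5MC2 call in 3. COX5A was at 119 to 214 CPM in mid-growth (median 191) and at 562, 276.6, 317 and 303 CPM in large oocytes, above every mid-growth sum, and all 33 large oocytes exceeded the mid-growth median (log2 fold change 1.06, SE 0.18, adjusted p = 0.000874). ATP5MC1 and ATP5MC2 encode the same c subunit of ATP synthase. ATP5MC1 rose by 0.68 (SE 0.18, adjusted p = 0.0142), from a mid-growth median of 239.6 CPM, and ATP5MC2 had a log2 fold change of −0.73 (SE 0.19, adjusted p = 0.0157), from a median of 28.7 CPM. None of the 4 genes of the mitochondrial genome that could be named was called by edgeR, though 3 were downregulated without the 110–119 μm sum of replicate 1. COX2, the one with the smallest adjusted p (0.187), had a log2 fold change of −0.53 (SE 0.26), and the difference of mean log2 CPM was −0.14 in replicate 1 and −0.98 in replicate 2. A separate edgeR fit to the sums of replicate 1 gave 0.12 (adjusted p = 0.947), so the sign in that replicate depended on the estimate. The study had removed oocytes with many mitochondrial reads. Of 36 acyl-CoA and citrate genes, ACOT8 (0.91) rose and ACADS (−0.92) fell, of 38 genes for autophagy, the V-ATPase and cathepsins CTSC (0.97) rose and ATP6AP1 (−0.79) fell, and of 29 for cullins and ubiquitin ligation ANKIB1 (0.90) and AREL1 (0.65) rose and CBL (−0.71) and CAND2 (−0.76) fell. The first and second of these lists lay below the shares over all genes in both directions, and the third was close to them. In the settings that left out 1 sum, the call was lost in 11 of 12 for CAND2, 9 for CBL and 7 for AREL1. ACOT8 and CTSC were not higher in large oocytes than at 100–109 μm alone. Their log2 fold changes against that group were −0.19 (adjusted p = 0.738) and −0.28 (adjusted p = 0.636).

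Of 29 oocyte markers listed, 9 could be named and tested, so the counts do not speak for the others. Among these 9, BCAR4, CALB1 (1.23, SE 0.38), BTG4 and AURKC rose and none fell, where 7.08% and 7.68% of all genes did. Settings that left out 1 sum gave 1 to 4 upregulated and up to 1 downregulated. The paper places the highest expression of TLE6, PADI6, NLRP2, NLRP5 and BMP15 in the middle phase of growth. Of these genes, BMP15 alone was among the 9. BMP15, the growth factor that oocytes send to granulosa cells, was abundant on both sides, at 799.6 to 1592 CPM in mid-growth and 584, 1649, 1269 and 2079 CPM in the large sums. Its log2 fold change was 0.21 (SE 0.24, adjusted p = 0.611). The difference of mean log2 CPM was −0.50 in replicate 1 and 0.83 in replicate 2, and separate edgeR fits to each replicate gave −0.34 and 0.79. ACTL8, an actin-like gene, had a log2 fold change of 0.84 (SE 0.39, adjusted p = 0.161), with counts in 64 of 86 mid-growth and 32 of 33 large oocytes. Among 18 tested BMP and activin genes, the receptor BMPR1A rose by 0.66 (SE 0.21, adjusted p = 0.0442) and BMP7 had a log2 fold change of −1.65 (SE 0.52, adjusted p = 0.0378). This count of 1 each way is below the shares over all genes, and both calls were lost in 7 or 8 of 12 settings that left out 1 sum.

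Markers of other ovarian cells were present on both sides. The 7 granulosa and cumulus markers that could be named, of 16 listed, summed to 7.58 to 11.1 CPM in mid-growth sums (median 9.03) and to 4.02 to 9.32 CPM in large sums (median 4.87). None was at 0 in every oocyte, 3 passed the filter on low counts and none was called, though all 3 values were negative (median −1.27). The 9 theca and stroma markers named, of 12, summed to 7.84 to 27.8 CPM and 8.39 to 20.7 CPM, with 3 tested and none called. The 12 blood, immune and endothelial markers named, of 15, summed to 31.5 to 163 CPM (median 88.8) and 28.9 to 84.8 CPM (median 37.5), and of 5 tested CSF1R fell (log2 fold change −0.85, adjusted p = 0.0116). Their part in the differences above was not tested.

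The large side was also divided into its groups. Against the mean of mid-growth, oocytes of 110–119 μm had 884 upregulated and 555 downregulated genes (10.2% of those tested), and oocytes > 120 μm had 755 DEGs (5.36%), 339 of them downregulated. Both contrasts use the same mid-growth sums. The genes upregulated in large oocytes as a whole had medians of 1.01 at 110–119 μm and 0.83 at > 120 μm, and the downregulated genes −1.02 and −0.95. These genes were chosen by the mean of both groups, which largely fixes the sign of these medians. CETN3 had 1.89 at 110–119 μm (adjusted p = 0.000905) and 0.72 at > 120 μm (adjusted p = 0.19), and CXADR had −0.27 (adjusted p = 0.598) and −1.42 (adjusted p = 0.0191).

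Set against each other, > 120 and 110–119 μm differed in 1 gene (0.0071% of those tested) by edgeR, while 1564 genes were at an unadjusted p under 0.05. It was DMAC1, an assembly factor of mitochondrial complex I, named here after its values were seen. DMAC1 stood at 2.68 and 7.03 CPM at 110–119 μm and at 0.0785 and 0.233 CPM at > 120 μm, with counts in 10 of 19 and 3 of 14 oocytes. The log2 fold change of > 120 minus 110–119 μm was −5.21 (SE 0.76, adjusted p = 0.0198). Its sums at 70–79 μm had held 6.15 and 7.27 CPM.

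The large oocytes were set against each mid-growth group in turn. They had 688 upregulated and 1153 downregulated genes against 70–79 μm (13.1% of those tested), 381 and 538 against 80–89 μm (6.52%), 64 and 135 against 90–99 μm (1.41%) and 23 and 52 against 100–109 μm (0.532%). These contrasts share the large sums, and their median SE was 0.366, 0.365, 0.367 and 0.366. Genes at an unadjusted p under 0.05 numbered 4067, 3127, 2168 and 2750. Without the deepest 100–109 μm oocyte the last contrast gave 71 and 115 DEGs. For the 998 upregulated genes of the main comparison, the median log2 fold change was 1.13, 0.98, 0.76 and 0.76 against these groups, and for the 1082 downregulated genes −1.24, −1.03, −0.88 and −0.83.

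Within mid-growth, 90–109 μm against 70–89 μm gave 32 upregulated and 13 downregulated genes (0.319% of those tested), and 16 and 4 without the deepest 100–109 μm oocyte. Both sides of that contrast belong to the mid-growth side of the main comparison.

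Levels below 70 μm, which the comparison did not use, are given as a description. Relative to the mean of the mid-growth groups, the 998 upregulated genes had a median log2 level of −0.31 at < 60 μm and −0.16 at 60–69 μm. The upper quartiles of these were 0.07 and 0.11. The 1082 downregulated genes had medians of 0.31 and 0.22, and 784 and 756 of them lay above the mid-growth mean. Over all 14087 genes tested the medians were 0.05 and 0.06, with 7522 and 7729 genes above. ALDH1A2 was at 18.4 and 13.4 CPM at < 60 μm, near its mid-growth median of 14.9 CPM, and CCL25 was at 1.76 and 1.52 CPM there, against 34.7 CPM. KCNH5 at < 60 μm was at 0.661 and 2.30 CPM and ALDH18A1 at 126 and 59.2 CPM.

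**Figure D5:**
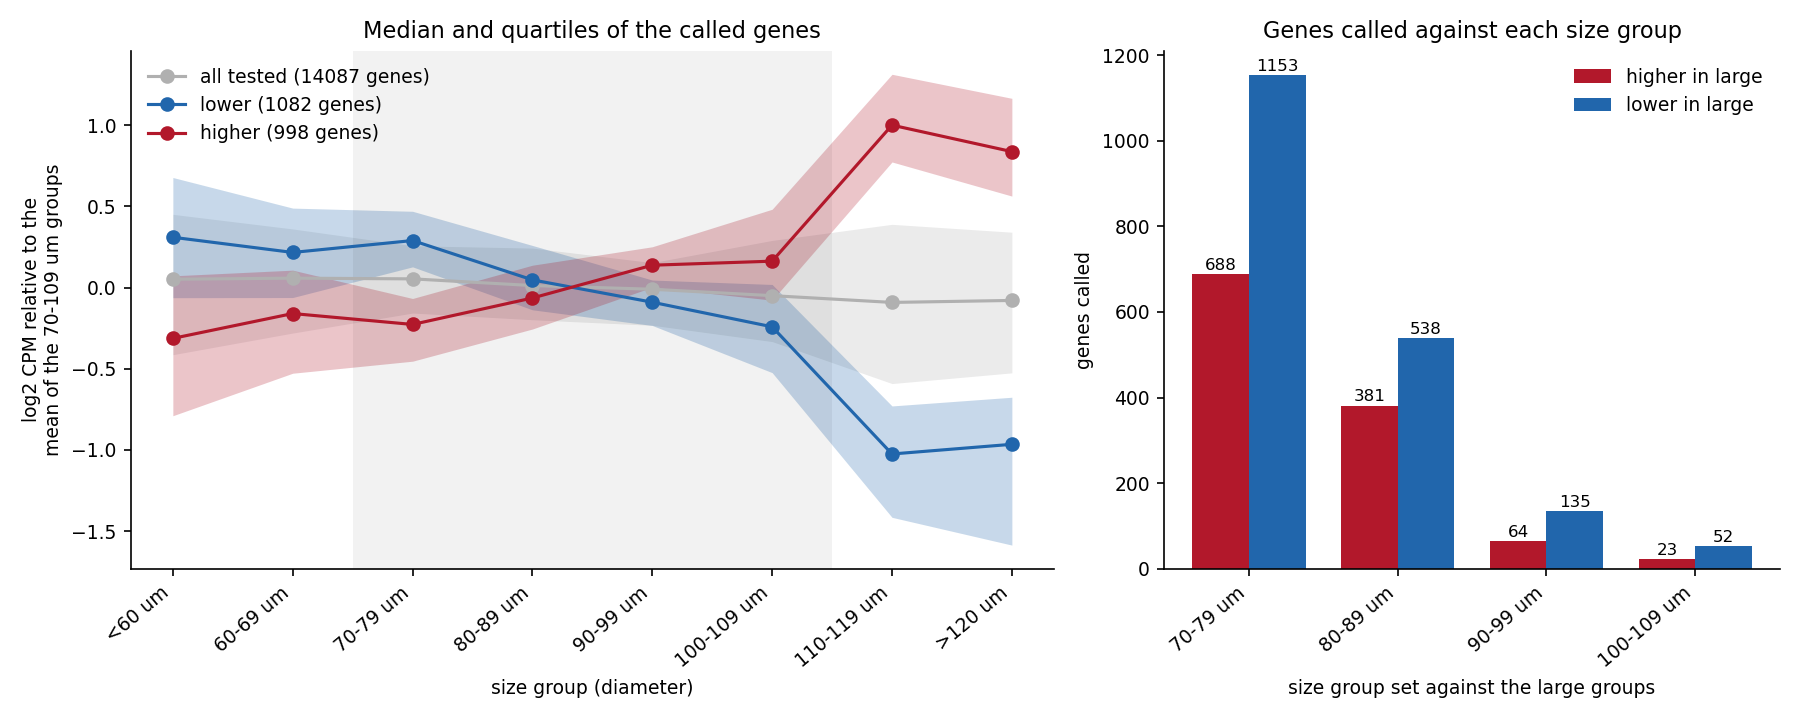
Left, median (line) and quartiles (band) of the log2 CPM of each size group relative to the mean of the 70–109 μm groups, for the 998 upregulated (red), 1082 downregulated (blue) and all 14087 tested genes (grey); the shaded range is mid-growth. The groups compared fix the step at 110–119 μm, where the medians are 1.00 and −1.02. Right, number of genes called in large oocytes against each mid-growth group, which ranges from 688 and 1153 against 70–79 μm to 23 and 52 against 100–109 μm.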

How the data were processed

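Single-oocyte libraries were trimmed with Trim Galore (version 0.6.6), aligned with HISAT2 to ARS-UCD1.2 and quantified in SeqMonk by the authors, who deposited raw counts with no normalization. The treatment of multiple alignments, strand and overlapping genes is not given in the sources used here, so paralogs and overlapping genes are uncertain. Gene IDs on several lines (1679 IDs, 14.8% of counts) were summed over their lines. Symbols came from supplementary lists of the study and were used for 3569 IDs. Gene sequences were not used here.

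Counts were summed per size group and replicate over the oocytes the study retained. Genes passed filterByExpr (counts of 10 per sum and 15 in total). TMM normalization and edgeR's quasi-likelihood test (edgeR 4.0.16, R 4.3.3) were applied to all 16 sums. The model held a term for each of 8 size groups and a replicate block. The contrast was the mean of the 2 large groups minus the mean of the 4 mid-growth groups, with Benjamini-Hochberg adjustment over all genes tested. The SE is the log2 fold change divided by the square root of F. Levels per oocyte are counts divided by the library total. The replicate number pairs the sums, because sums of 1 replicate come from 1 library batch and deviated together from their group means (r between 0.479 and 0.694 over 15 pairs). Nothing says that the replicates hold different animals, so the p-values measure the spread between these sums, which may be technical. Of the genes tested, 489 had no count in at least 1 of the 6 size groups, and their fitted fold changes are not given. On simulated sums with 200 changed genes, the fit recovered 74% of 2-fold and 99% of 4-fold changes. Of its 181 calls, 8 were false. Counts of each sum were drawn independently around the mean of its replicate, and no sum was dominated by 1 oocyte. The interaction was simulated only without a change, so its power was not measured.

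The oocytes, gene lists and tests were chosen with earlier results of these data known. Named genes are the 10 upregulated and 10 downregulated genes with a symbol and the smallest adjusted p that moved in the same direction in both replicates, up to 2 per direction of each list, BMP15, BCAR4 and ACTL8, and a few IDs without a symbol. Further members of a list were named beside its count. A few genes that this rule takes are not reported here. Alternatives were no block, RLE, DESeq2 (1.42.0), no filter, other groupings, single oocytes with raw or ComBat-seq counts (sva 3.50.0), 250000 counts per oocyte, all deposited oocytes with at least 1000 counts, each replicate alone, and each group or sum left out. Python 3.11.15 and matplotlib 3.10.9 drew the figures.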

Additional observations from a re-analysis of the deposited data

Results flagged for a closer look

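Over the named genes, the 8 mid-growth and the 4 large sums were examined with the replicate means subtracted, 178 sets in all, and in 5 of them a single sum stood far from the others. Chance alone flags about 5% of such sets. CASP8AP2 was low in the 70–79 μm sum of replicate 2, at 71.6 CPM. In the 100–109 μm sum of replicate 1, BTG4 was low at 2016 CPM and COX2 at 331 CPM, and 52.9% of the counts of that sum came from 1 oocyte. In the 110–119 μm sum of replicate 1, CETN3 was high at 2723 CPM and AP3S1 at 228 CPM. Without that sum the count of upregulated genes fell to 504. None of the named genes differed in its contrast between the replicates by edgeR (smallest adjusted p = 0.507), and 8 of them had an unadjusted p under 0.05 for that difference.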

How the results depend on the processing

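The main comparison called 998 upregulated and 1082 downregulated genes. Leaving out 1 sum at a time gave 504 to 1224 and 402 to 874. The counts moved beyond 1.5 times to 11 and 10 without the replicate block, to 647 and 688 when the size groups of a side were taken as its replicates, to 0 and 0 within replicate 1 and to 106 and 50 within replicate 2, where fewer sums were compared, to 755 in total, 339 of them downregulated, without the 110–119 μm group, to 555 downregulated without the > 120 μm group, to 2616 and 2516 with single oocytes as units and to 2712 and 2280 with their ComBat-seq counts. The cause was not tested. RLE gave 1184 and 927, DESeq2 1432 and 1352, no filter 1144 and 1081, and 250000 counts per oocyte 1360 and 1308. Without a filter, 13 genes were called for the difference between replicates and 4 for > 120 against 110–119 μm. Without the deepest 100–109 μm oocyte, a setting chosen after the data were seen, 1247 genes were called for > 120 μm against mid-growth, 186 for large oocytes against 100–109 μm and 20 within mid-growth, against 755, 75 and 45.

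Of 86 named genes called, 45 stayed called in every setting that left out 1 sum, and none changed direction in an alternative that tested it (75 of the 86 were tested without gene IDs on several lines and 85 at 250000 counts). Without the 110–119 μm sum of replicate 1, 32 were lost, without the 110–119 μm group 40, without the replicate block 79, within replicate 2 alone 73 and within replicate 1 alone all 86. Among named genes not called, COX2 reversed to 0.12 in the edgeR fit to replicate 1 alone, where the difference of mean log2 CPM was −0.14, and to 0.15 without the > 120 μm group, and BMP15 to −0.34 and −0.10 in the same settings (difference of mean log2 CPM in replicate 1 −0.50), and its range was −0.15 to 0.52 when 1 sum was left out. Genes with few counts, such as RGS4, are limited by depth.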
